A study of Homo sapiens with 30 samples.

Results

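The circadian clock genes described here are 9 repressors of the molecular clock, BHLHE40, BHLHE41, PER1, PER2, PER3, CRY1, CRY2, NR1D1 and NR1D2, and its output gene DBP. They were chosen by name, as the genes of the array that carry one of these symbols, and all 10 were found, on 14 of the 58201 probes and among 43972 gene names. The cells were of the line BEAS-2B, which derives from immortalized human bronchial epithelium, and were grown on porous Transwell inserts with air above and medium below. Pollen exposed cells received 10 mg of whole birch pollen, dispersed with pressured air and allowed to settle for 10 min. Mock exposed cells, called air in the labels, passed through the same chamber and the same air pulse while the pollen was held back, so that both groups share the handling. Cells were lysed at 10 and 55 min, at 2h25 min and 6h50 min, and at 24 h, with 3 one-colour Agilent arrays in each of the 10 groups and 1 culture per array. The cells are 1 line, so that the arrays show the spread between cultures and not between people, and a lower signal from fewer transcripts per cell cannot be told apart from one of fewer expressing cells.

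The clock is a loop of transcription and repression that runs in most cells. CLOCK and BMAL1, whose gene is listed as ARNTL on the array, bind E-box elements and drive the PER, CRY, NR1D and DBP genes. PER and CRY proteins return to the nucleus and inhibit CLOCK and BMAL1, NR1D1 and NR1D2 (REV-ERB alpha and beta) repress the BMAL1 gene, and BHLHE40 and BHLHE41 (DEC1 and DEC2) compete at the E-boxes. In cultured cells the clocks of single cells drift apart unless a stimulus such as fresh serum or a glucocorticoid sets them together, and PER1 is among the genes that such stimuli induce within the first hour.

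Promoter sequence was read from RefSeq (GRCh38.p14) as the 250 bases before each annotated start, which gave 13 windows for the 10 genes. The E-box CACGTG, which is the same on both strands, was found in 4 genes, BHLHE40, BHLHE41, PER1 and NR1D2, and in 6.34% of the 35116 windows of all genes. The D-box TTATGNAA, searched on both strands, was found in PER1, PER3 and NR1D2 and in 3.03% of all windows. The cyclic AMP response element TGACGTCA, also the same on both strands, was found in 0 of the members and in 1.65% of all windows. The windows of BHLHE40 (chr3:4979187-4979436, plus strand) and PER1 (chr17:8152405-8152654, minus strand) are shown because these members were called between 10 and 55 min below. Capitals mark the E-box in both and the D-box in PER1, 5′ to 3′ in the direction of the gene.
BHLHE40: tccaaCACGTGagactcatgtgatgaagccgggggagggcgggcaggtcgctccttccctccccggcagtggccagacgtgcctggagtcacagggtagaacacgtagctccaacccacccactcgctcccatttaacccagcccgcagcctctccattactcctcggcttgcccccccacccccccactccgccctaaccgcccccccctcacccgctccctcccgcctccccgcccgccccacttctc
PER1: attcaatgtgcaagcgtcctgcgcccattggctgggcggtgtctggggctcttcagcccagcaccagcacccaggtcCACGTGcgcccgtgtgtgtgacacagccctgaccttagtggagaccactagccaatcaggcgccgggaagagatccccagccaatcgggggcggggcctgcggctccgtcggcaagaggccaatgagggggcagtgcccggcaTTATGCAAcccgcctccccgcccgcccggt
The E-box of BHLHE40 begins 245 bases before the start and that of PER1 173 bases before it, with the D-box of PER1 at 30 bases. These are matches of letters and no binding was measured.

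Levels are given as the log2 of the spot intensity after background subtraction minus the 75th percentile of the array, so that a level of 0 is the brightness of that percentile. Levels of different probes are not set against each other. A difference was called when limma gave a Benjamini-Hochberg adjusted p under 0.05 over all 32099 tested probes and a change of at least 1.1-fold, and all adjusted p-values below are of this kind. A gene is represented by its brightest tested probe. All 14 probes passed the filter on dim probes, and the brightest probe of each member was well above background on all 30 arrays, except for BHLHE41, which was not on the 6h50 min air replicate 1 array. The 3 arrays of a group are separate exposures, and p-values measure the spread between them.

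The arrays lie on 5 slides, and all 6 arrays of 6h50 min lie on a slide of their own. Their 75th percentiles were 578 to 1151, against 1044 to 2111 on the other 24 arrays, and 44.7% to 49.8% of their probes were well above background, against 47.5% to 62.6%. Comparisons of 6h50 min with another time cannot be told apart from a difference between slides. The 6h50 min air replicate 1 and 2 arrays also have dim areas that hold 4.10% and 3.21% of their spots. Pollen replicate 1 of 55 min was hybridised to another array design, alone on its slide. The 8 epithelial markers looked up, among them KRT18, KRT19 and EPCAM, were above background on all 30 arrays, at mean levels of 1.44 to 5.96. Of the endothelial markers, PECAM1 was above background on 0 arrays and CDH5 on all 30 (mean level -4.05), and of those of ciliated or secretory airway cells FOXJ1 on 8, MUC5AC on 27 and SCGB1A1 on 29 (mean levels of -7.18 to -4.47). Of 4 mesenchymal markers, vimentin (VIM), CDH2 and COL1A1 were above background on all 30 arrays and COL1A2 on 27. Their mean levels ran from -4.55 for COL1A2 to 6.44 for VIM. Of 3 leukocyte markers, the monocyte marker CD14 and PTPRC were above background on all 30 arrays and CD3E on 17. Their mean levels were -0.45 for CD14, -4.57 for PTPRC and -6.72 for CD3E.

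**Figure D1:**
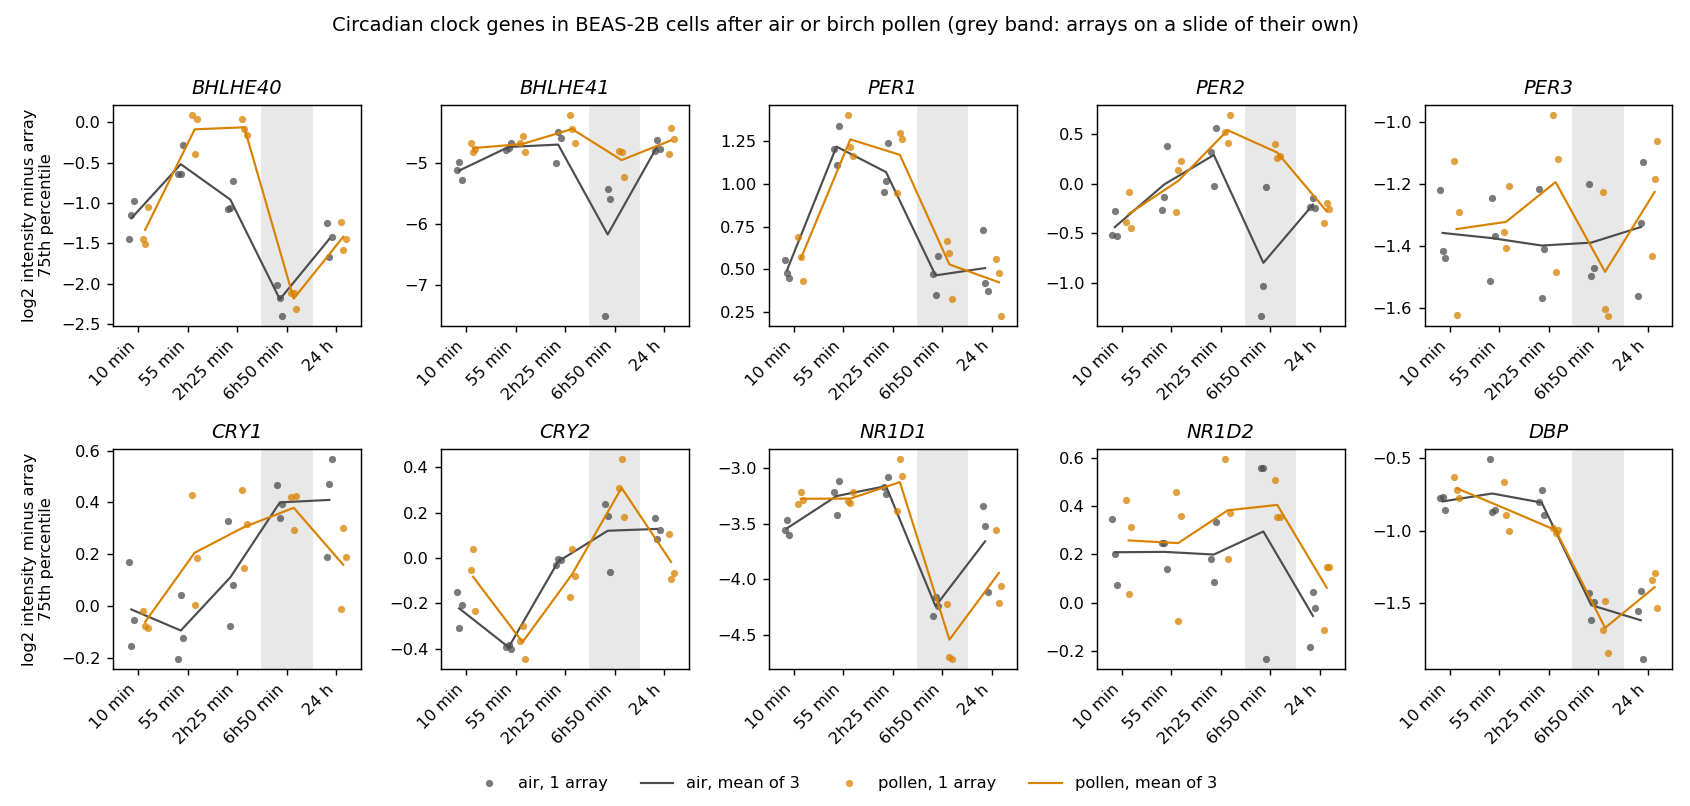
Level of each of the 10 clock genes (y axis, log2 intensity minus the 75th percentile of the array) at the 5 times (x axis, in order and not to scale), with air in grey and pollen in orange, each point 1 array and each line through the means of 3 arrays. The grey band marks the slide of 6h50 min. BHLHE40 has means of -0.09 and -0.06 with pollen at 55 min and 2h25 min and of -0.52 and -0.96 with air, and PER1 is higher at 55 min than at 10 min in both.

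BHLHE40 was higher with pollen than with air at 2h25 min. It encodes a basic helix-loop-helix repressor that many stimuli induce, and it was read by a probe at chr3:5026260-5026319 (hg19, plus strand). At 2h25 min the levels were -1.08, -1.07 and -0.73 on the air arrays and 0.05, -0.08 and -0.15 on the pollen arrays. Every pollen array was above every air array, and the groups did not overlap. The log2 difference was 0.90 (SE 0.16, 95% interval 0.56 to 1.24, 3 against 3 arrays), or 1.86-fold, with an adjusted p of 0.0462.

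BHLHE40 was the only member called between pollen and air at 2h25 min, where 0.0343% of all tested probes were called, 11 probes and all of them higher. The call is near its threshold in this fit, which uses no pairing of pollen and air arrays. It was kept under 7 of 11 other settings, and lost under the others with adjusted p-values up to 1.00, at log2 differences of 0.78 to 0.93 over all 11. The replicate block, which pairs arrays of the same number, kept the call, with 0.137% of all tested probes called. The fit of only the groups compared lost it, with 0% of all tested probes called. The fits below that leave out 1 array use no pairing. Of the 6 fits that leave out 1 array, the call stood only without the air replicate 3 array (adjusted p = 0.0490). It was lost without air replicate 1 (0.250) or 2 (0.319) and without pollen replicate 1 (0.377), 2 (0.240) or 3 (0.0693), at log2 differences of 0.84 to 1.01 over the 6 fits. Within slides, the log2 difference was 1.06 where 2 arrays of each exposure share a slide and 0.58 where 1 of each does.

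At 55 min BHLHE40 stood at -0.64, -0.64 and -0.29 on the air arrays and at 0.09, -0.39 and 0.04 on the pollen arrays. The ranges overlapped, since the pollen replicate 2 array lay below the highest air array. The log2 difference was 0.43 (SE 0.16, 95% interval 0.09 to 0.77, adjusted p = 0.920), and 0.29 on the slide that holds 2 arrays of each. At 10 min, 6h50 min and 24 h the log2 differences of BHLHE40 were -0.14, 0.01 and 0.03. The test of whether the pollen effect differs between the 5 times gave BHLHE40 the smallest p of the members, 0.00107 before adjustment and 0.879 after it. With it 0 members passed, against 1 of all tested probes (0.00312%), while 3 members, BHLHE40, PER2 and CRY1, had an unadjusted p under 0.05, against 3.5% of all probes. The PER2 value includes 6h50 min, where its spot lies in dim areas of air replicates 1 and 2. All 3 values include the 55 min pollen replicate 1 array, which is of another design and alone on its slide.

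**Figure D2:**
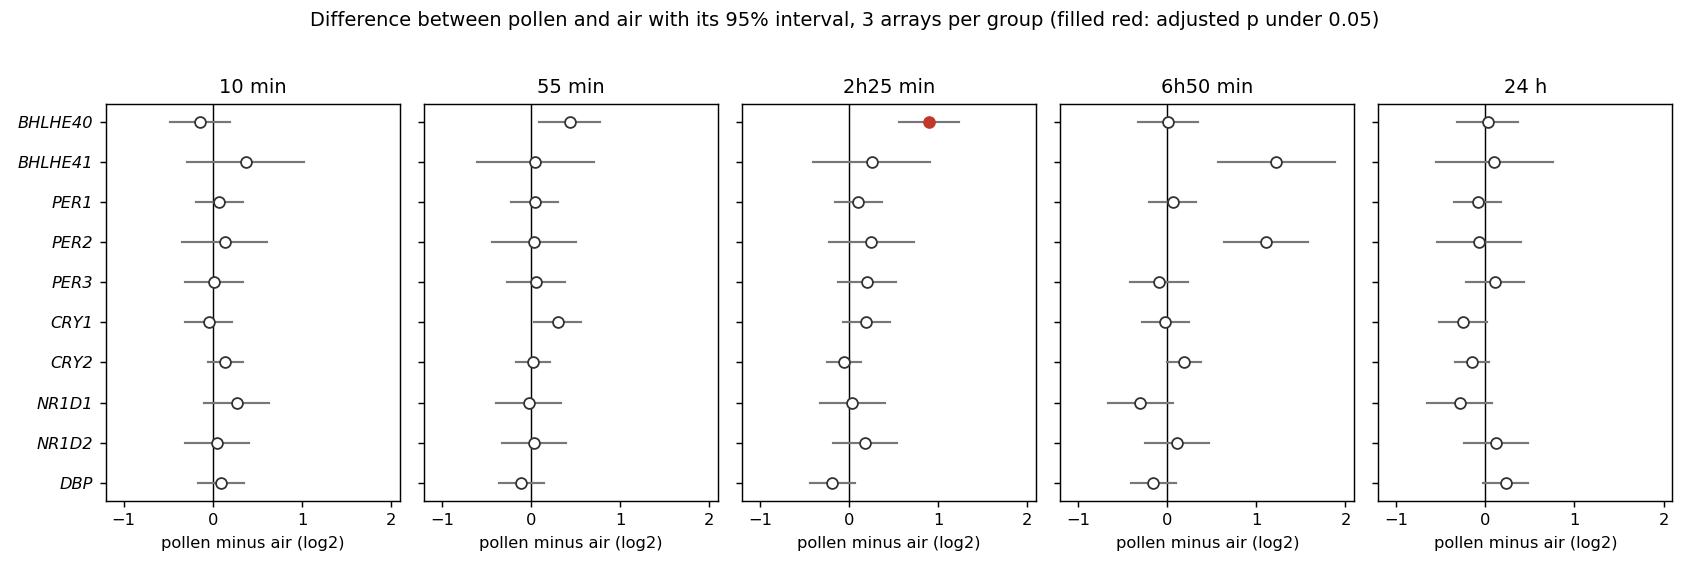
Log2 difference of pollen minus air (x axis) for the 10 clock genes (y axis), 1 panel per time, each point a difference of 2 means of 3 arrays and each bar its 95% interval from limma. The filled red point, BHLHE40 at 2h25 min at 0.90, is the only one called, and those of PER2 (1.11) and BHLHE41 (1.23) at 6h50 min lie farther from 0 with wider intervals.

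At the other times limma called 0 members between pollen and air, against 0% of all tested probes at 10 min, 0.00312% at 55 min, 0.0436% at 6h50 min and 0.00312% at 24 h. Members with an unadjusted p under 0.05 numbered 0 at 10 min, 2 at 55 min, 2 at 6h50 min and 0 at 24 h, against 1.83%, 5.08%, 7.44% and 3.61% of all tested probes. The median log2 difference over the 10 members was between -0.02 and 0.19 over the 5 times, and that over all tested probes between -0.03 and 0.01.

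Both members that came close at 6h50 min, PER2 and BHLHE41, have spots in the dim areas of the air arrays. PER2, which inhibits CLOCK and BMAL1 together with the CRY proteins, is read by 2 probes, 21345 bases apart. Its brighter probe (chr2:239152817-239152876, hg19) had levels of -1.33, -1.03 and -0.04 on the air arrays and 0.40, 0.26 and 0.28 on the pollen arrays. All air arrays were lower, and the 2 with dim areas were lowest. The log2 difference was 1.11 (SE 0.23, adjusted p = 0.0655), and PER2 was called under 5 of 11 other settings. The surroundings of this spot deviated by -1.51 and -0.94 on the log2 scale on air replicates 1 and 2. With the spots in dim areas left out, which leaves 1 air array, the log2 difference was 0.35 (SE 0.23, adjusted p = 0.963). The second PER2 probe (chr2:239174162-239174221, hg19) does not lie in a dim area. Its levels were -3.61, -4.33 and -3.75 with air and -3.73, -3.72 and -4.11 with pollen, which overlap, and its log2 difference was 0.05 (SE 0.18, adjusted p = 1.00).

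BHLHE41, the close relative of BHLHE40, was dim throughout (chr12:26273632-26273691, hg19). At 6h50 min its levels were -7.51, -5.42 and -5.59 with air and -4.80, -4.82 and -5.24 with pollen. The air replicate 1 array, not above background, lay far below the others, and the groups did not overlap. The log2 difference of 1.23 (SE 0.32, adjusted p = 0.143) became 0.64 with the spots in dim areas left out, which leaves 1 air array. The surroundings of this spot deviated by -0.65 and -0.35 on air replicates 1 and 2. No spot of another member lies in a dim area. CRY2 differed by 0.19 on the log2 scale at 6h50 min (adjusted p = 0.684) and was called at 0.45 and 0.43 after normexp correction and in the authors' table, the settings where BHLHE41 and PER2 were called as well. In these settings 0.95% and 1.2% of all tested probes were called, against 0.0436% as reported.

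**Figure D3:**
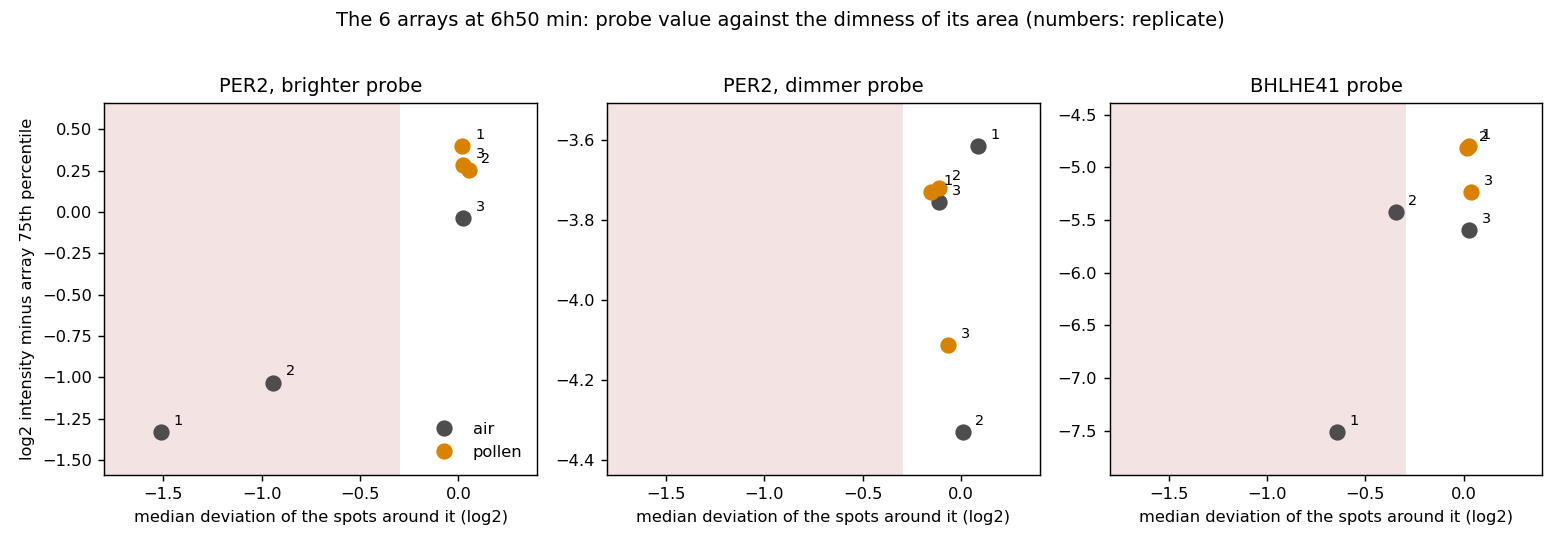
Level at 6h50 min (y axis, log2 intensity minus the 75th percentile of the array) of both PER2 probes and of BHLHE41 against the median deviation of the spots around the probe (x axis, log2), each point 1 array with its replicate number, air in grey and pollen in orange. The shaded area holds spots in dim areas, which are air replicates 1 and 2 of the brighter PER2 probe (-1.33 and -1.03) and of BHLHE41 (-7.51 and -5.42).

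PER1, PER3, the cryptochromes, the REV-ERB genes and DBP were not called between pollen and air at any time. For PER1 the log2 differences over the 5 times were -0.08 to 0.10, and their 95% intervals lay between -0.35 and 0.36. PER3 ranged from -0.09 to 0.20, NR1D2 from 0.04 to 0.18, and CRY2 from -0.15 to 0.19. CRY1 had its highest value at 55 min, 0.30, and its lowest at 24 h, -0.25. On the slide that holds 2 arrays of each exposure at 55 min, the CRY1 difference was 0.13. Its highest pollen level there, 0.43, was on the replicate 1 array of another design. NR1D1 differed by -0.30 at 6h50 min and -0.28 at 24 h, and DBP by -0.19 at 2h25 min and 0.23 at 24 h. The SE was 0.09 to 0.18 for these genes, and a log2 difference of 0.90, as for BHLHE40, lies outside all their 95% intervals, whose lowest and highest bounds are -0.67 and 0.63.

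Within each exposure, PER1 rose between 10 and 55 min. It was read at chr17:8044267-8044326 (hg19, minus strand). With air its levels were 0.56, 0.48 and 0.45 at 10 min and 1.21, 1.11 and 1.34 at 55 min. With pollen they were 0.69, 0.57 and 0.43 at 10 min and 1.40, 1.22 and 1.16 at 55 min. In both exposures all 55 min arrays lay above all 10 min arrays. The log2 difference was 0.72 with air (SE 0.13, 1.65-fold, adjusted p = 0.0138) and 0.70 with pollen (SE 0.13, 1.62-fold, adjusted p = 0.0104). PER1 was the 1 member called with air, where 0.187% of all tested probes were called, and 1 of 2 called with pollen, where 0.841% were.

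The first slide holds 1 air array of 55 min beside the 3 of 10 min, and there the log2 difference of PER1 was 0.71. The call with air was kept in 7 of 11 other settings and lost with the slide as a random (adjusted p = 0.0583) or fixed block (0.209), with the percentile over own probes (0.361) and with only the groups compared (0.232). With only the groups compared 0% of all tested probes were called, so that the loss there is not particular to PER1. No slide holds both times with pollen. The fit with the slide as a fixed block leaves out the pollen replicate 1 array of 55 min. With pollen it called neither PER1 (log2 difference 0.61) nor BHLHE40 (0.98), both at an adjusted p of 1.00. The call of PER1 with air was also lost without the 10 min replicate 2 or 3 array or the 55 min replicate 2 or 3 array (adjusted p from 0.0505 to 0.150). At 2h25 min PER1 stood at 0.95, 1.02 and 1.24 with air and at 0.95, 1.30 and 1.26 with pollen, which overlap the levels of 55 min.

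BHLHE40 was the other member called between 10 and 55 min with pollen. Its levels at 10 min were -1.44, -1.15 and -0.98 with air and -1.44, -1.51 and -1.05 with pollen. The 55 min arrays given above lay higher on every array in both exposures. The log2 difference was 1.25 with pollen (SE 0.16, 2.37-fold, adjusted p = 0.000411) and 0.67 with air (SE 0.16, 1.59-fold, adjusted p = 0.0961). Air thus missed the threshold, with 0.56 on the slide that holds both times. The other members had log2 differences between -0.17 and 0.43 with air and between -0.29 and 0.33 with pollen.

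Between 55 min and 2h25 min limma called 0 members in either exposure, against 0.0156% of all tested probes with air and 0.202% with pollen, and 2 members in each had an unadjusted p under 0.05, against 4.3% and 8.42% of the probes. BHLHE40 changed by -0.44 on the log2 scale with air, -0.61 on the slide that holds both times, and by 0.03 with pollen. Its order of levels with air was 55 min, 2h25 min, 10 min, 24 h and 6h50 min, where the arrays of 10 min overlapped both those of 2h25 min and those of 24 h. With pollen, 2h25 min and 55 min overlapped at the top, 10 min and 24 h overlapped next, and 6h50 min was lowest without overlap.

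Several members stood lower at 24 h than at 2h25 min, in a comparison chosen after seeing the data because it does not use the 6h50 min slide. With air 4 of 10 members were called, all lower, where 27.4% of all tested probes were called and 14.9% were called lower. With pollen 5 of 10 were called, all lower, where 23% of the probes were called and 11.8% were called lower. The median log2 difference over the 10 members was -0.37 with air and -0.36 with pollen, against -0.07 and -0.02 over all tested probes.

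DBP, a basic leucine zipper activator that binds D-boxes and is a direct target of CLOCK and BMAL1, fell with air. At chr19:49136746-49136805 (hg19) its levels were -0.80, -0.72 and -0.89 at 2h25 min and -1.55, -1.41 and -1.88 at 24 h. The groups were well apart, with a log2 difference of -0.81 (SE 0.12, adjusted p = 3.48e-05). With pollen the levels were -0.98, -1.01 and -0.99 at 2h25 min and -1.34, -1.29 and -1.53 at 24 h. All 24 h arrays were lower by a smaller step, a log2 difference of -0.39 (SE 0.12, adjusted p = 0.0225), and that call was lost without any 1 of the 3 pollen arrays of 2h25 min or without pollen replicate 3 of 24 h (adjusted p from 0.0502 to 0.100). Whether the steps with air and pollen differ was tested only over all 5 times, where DBP had an unadjusted p of 0.108.

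PER1 fell by 0.56 on the log2 scale with air (SE 0.13, adjusted p = 0.00186) and by 0.75 with pollen (SE 0.13, adjusted p = 0.000189). At 24 h its levels were 0.73, 0.42 and 0.37 with air and 0.56, 0.48 and 0.23 with pollen, all below the 2h25 min arrays and overlapping those of 10 min. BHLHE40 at 24 h stood at -1.25, -1.66 and -1.43 with air and -1.23, -1.58 and -1.45 with pollen. These levels were lower than at 2h25 min on all arrays, with log2 differences of -0.49 with air (SE 0.16, adjusted p = 0.0286) and -1.36 with pollen (SE 0.16, adjusted p = 5.27e-06). The call with air was lost without air replicate 3 of 2h25 min (adjusted p = 0.138) and without replicate 2 (0.143) or 3 (0.0557) of 24 h.

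NR1D1, the REV-ERB alpha receptor, was read at chr17:38251199-38251258 (hg19). Its levels with air were -3.17, -3.23 and -3.08 at 2h25 min and -3.34, -3.52 and -4.12 at 24 h. With pollen they were -3.39, -2.91 and -3.07 at 2h25 min and -3.55, -4.22 and -4.06 at 24 h. The later arrays were lower in both, with the 24 h air replicate 3 array lowest of its group. The log2 difference was -0.50 with air (SE 0.18, adjusted p = 0.0382) and -0.82 with pollen (SE 0.18, adjusted p = 0.00165). With air, leaving out any 1 of the 2h25 min arrays (adjusted p from 0.0654 to 0.105) or the 24 h replicate 3 array (a log2 difference of -0.27, adjusted p = 0.279) ended the call.

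For PER2 the levels at 2h25 min were 0.32, -0.02 and 0.56 with air and 0.52, 0.41 and 0.69 with pollen, and at 24 h -0.24, -0.15 and -0.25 with air and -0.40, -0.19 and -0.25 with pollen. The 24 h arrays were lower in both, and the difference was called with pollen (-0.82 on the log2 scale, SE 0.23, adjusted p = 0.0116) and not with air (-0.50, SE 0.23, adjusted p = 0.114). The second PER2 probe gave -0.76 with pollen (SE 0.18, adjusted p = 0.00404) and -0.16 with air (SE 0.18, adjusted p = 0.591). Without the 24 h pollen replicate 1 array the adjusted p of the brighter probe was 0.0514.

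One slide holds all 24 h arrays and the replicate 3 arrays of 2h25 min. On it the log2 differences with air were -0.71 for BHLHE40, -0.73 for PER1, -0.78 for PER2, -0.58 for NR1D1 and -0.72 for DBP, with a median of -0.04 over all tested probes. With pollen they were -1.27, -0.84, -0.97, -0.87 and -0.40 for the same genes. The second PER2 probe gave -0.21 with air and -0.86 with pollen on this slide. With the slide as a fixed block, the calls of BHLHE40 (adjusted p = 0.0589) and NR1D1 (0.0894) with air and of DBP with pollen (0.0859) were lost. The calls of DBP with air and of BHLHE40 and PER1 with pollen were kept in all 11 other settings and in all 6 fits without 1 array.

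**Figure D4:**
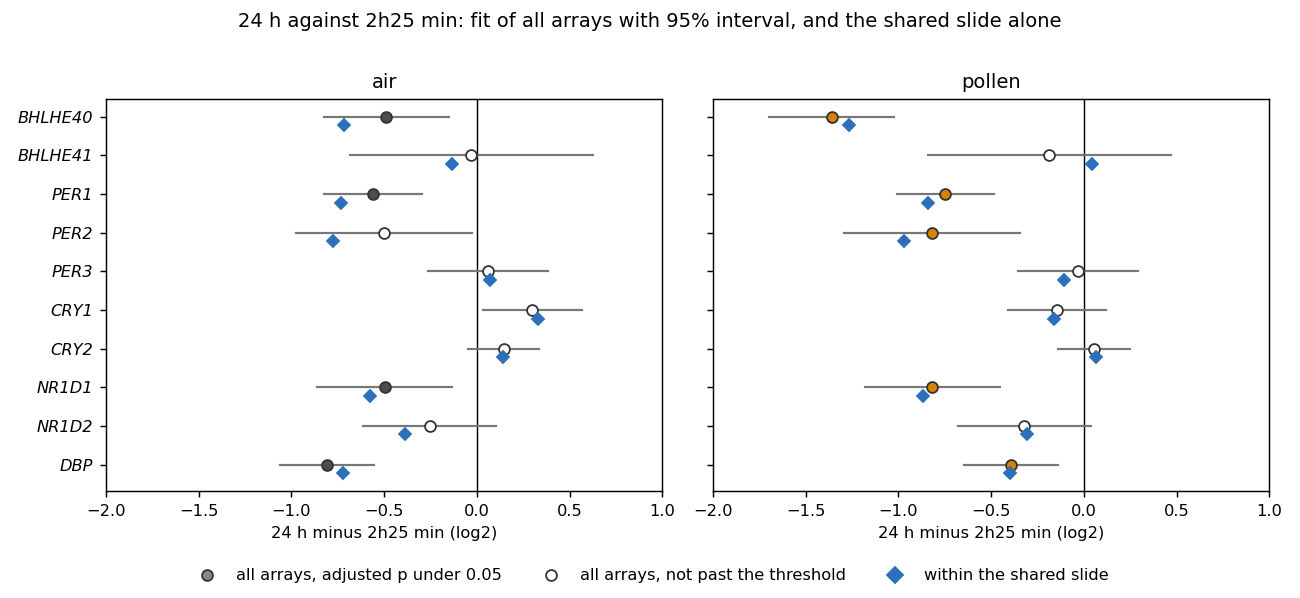
Log2 difference of 24 h minus 2h25 min (x axis) for the 10 clock genes (y axis) with air and with pollen, each circle a difference of 2 means of 3 arrays with its 95% interval from limma (filled where called) and each blue diamond the difference on the slide that holds 3 arrays of 24 h and 1 of 2h25 min. BHLHE40, PER1, NR1D1 and DBP lie below 0 in both exposures, from -0.39 to -1.36, and the diamonds of these genes lie below 0 too.

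CRY1 and CRY2, the cryptochromes, which bind PER proteins, were not called between 2h25 min and 24 h. CRY1 (chr12:107385482-107385541, hg19) had group means with air of -0.01, -0.09, 0.11, 0.40 and 0.41 in order of time, and with pollen of -0.06, 0.21, 0.31, 0.38 and 0.16. CRY2 (chr11:45904680-45904739, hg19) had -0.22, -0.39, -0.02, 0.12 and 0.13 with air and -0.08, -0.37, -0.07, 0.31 and -0.02 with pollen. Both thus had their lowest mean with air at 55 min, where PER1 and BHLHE40 had their highest. From 2h25 min to 24 h CRY1 differed by 0.30 with air (adjusted p = 0.0896) and -0.15 with pollen, and CRY2 by 0.14 and 0.05.

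NR1D2 and PER3 had the narrowest ranges of group means. NR1D2, the REV-ERB beta receptor, was read by 3 probes (chr3:24021460-24021519 for the brightest, hg19), the third of which was above background on 19 arrays, and its group means ran from -0.05 to 0.40. The brightest PER3 probe (chr1:7904641-7904700, hg19) had group means from -1.48 to -1.19 and all neighbours in the order of its levels overlapped. These were the genes for which the test for any change over the 5 times did not pass with air, where 8 of 10 members passed against 61.9% of all tested probes. With pollen 7 passed against 60.7%, BHLHE41 being the third that did not. With air, the test of BHLHE41 and PER2 includes 6h50 min levels from spots in dim areas of air replicates 1 and 2. In that test BHLHE40 had the smallest adjusted p of the members, 7.39e-07 with air and 9.12e-09 with pollen. With the 6h50 min groups left out of the test, but their arrays kept in the fit, 5 members passed with air, against 35.4% of all probes.

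The 6h50 min arrays stood apart from 2h25 min for 6 members with air, all lower, against 32.4% of all probes called and 22.5% called lower, and for 5 with pollen, 4 of them lower, against 31% called and 19.9% called lower. The slide cannot be told apart from the time here. The median log2 difference over all tested probes was -0.15 with air and -0.11 with pollen. BHLHE40 had its lowest levels at this time, -2.01, -2.18 and -2.40 with air and -2.12, -2.12 and -2.32 with pollen, which overlap each other and no other time. Its log2 difference from 2h25 min was -1.24 with air (adjusted p = 1.99e-05) and -2.13 with pollen (adjusted p = 5.9e-08). NR1D1 changed by -1.08 and -1.42, PER1 by -0.60 and -0.64 and DBP by -0.71 and -0.67, all called in both exposures.

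CRY2 was the only member called higher at 6h50 min, by 0.38 on the log2 scale with pollen (adjusted p = 0.0039). BHLHE41 (-1.48) and PER2 (-1.09) were called lower with air. They became -0.90 and -0.32 with the spots in dim areas left out, which leaves 1 air array of 6h50 min. The PER3 probes, 40867 bases apart, did not move together: the dimmer one (chr1:7863774-7863833, hg19) changed by -1.05 with air (adjusted p = 0.000333) and -0.91 with pollen (adjusted p = 0.00102), and the brighter one by 0.01 and -0.29, neither called. From 6h50 min to 24 h 4 members were called in each exposure, against 40.5% of all probes with air and 36.2% with pollen. BHLHE40 (0.75 and 0.77) and NR1D1 (0.58 and 0.60) were called higher in both, BHLHE41 (1.45) and PER2 (0.59) higher with air, and PER2 (-0.59) and CRY2 (-0.33) lower with pollen. When the spots in dim areas were left out, which leaves 1 air array of 6h50 min, BHLHE41 with air was 0.87 (adjusted p = 0.0029) and PER2 with air turned to -0.18 (adjusted p = 0.577).

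The other clock genes were taken from a list of 24, of which 23 are on the array and all 23 were tested. Between pollen and air limma called 0 of them at any of the 5 times, with 1, 1, 0, 1 and 0 at an unadjusted p under 0.05 in order of time. Of all tested probes, 1.83%, 5.08%, 2.98%, 7.44% and 3.61% had such a p. It also called 0 in both exposures between 10 and 55 min and between 55 min and 2h25 min. Unadjusted, the first step had 1 with air and 3 with pollen, against 10.8% and 15% of all probes. The second step had 2 and 3, against 4.3% and 8.42%. From 2h25 min to 24 h 8 were called with air, 5 higher and 3 lower, and 5 with pollen, 4 higher and 1 lower, against the 27.4% and 23% of all probes given above.

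Both exposures shared the calls of 4 of these genes between 2h25 min and 24 h. ARNTL2, a relative of BMAL1, had log2 differences of 0.58 with air and 0.51 with pollen, the kinase subunit gene CSNK2A1 0.57 and 0.49, and BTRC, part of a ubiquitin ligase that marks PER proteins for decay, 0.97 and 0.95. PPARGC1A, a coactivator of metabolic genes, had -1.17 and -1.21. With air, CSNK1D (0.40), the deacetylase gene SIRT1 (0.49), TEF (-0.40), which like DBP binds D-boxes, and TIMELESS (-0.30) were called as well, and with pollen FBXW11 (0.30).

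At 6h50 min, on its own slide, 9 of the other clock genes were called against 2h25 min in each exposure, 5 higher and 4 lower, where 32.4% (air) and 31% (pollen) of all probes were called. ARNTL, the BMAL1 gene that NR1D1 represses, had log2 differences of 0.37 with air and 0.41 with pollen, ARNTL2 0.50 and 0.60, CSNK1E, a kinase of PER proteins, 0.35 and 0.39, CSNK2A1 0.31 and 0.30, and BTRC 0.72 and 0.55. USP2, a deubiquitinase gene, had -1.94 and -2.44, the kinase gene GSK3B -0.35 and -0.52, and the nuclear receptor gene RORB -0.59 and -0.78. The USP2 probe was above background on 29 arrays, with a lowest level of -6.81. Whether the 6h50 min air spots of these other clock genes lie in dim areas was not examined, here or against 24 h below. TEF (-0.34) was called lower with air.

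From 6h50 min to 24 h 11 of the 23 were called with air and 9 with pollen, against 40.5% and 36.2% of all probes. USP2 had 1.99 and 2.71, GSK3B 0.49 and 0.62, FBXW11 0.35 and 0.39, ARNTL -0.32 and -0.49, CSNK1E -0.31 and -0.46, NFIL3, a repressor at D-boxes, -0.40 and -0.33, TIMELESS -0.44 and -0.31, and PPARGC1A -1.11 and -0.90. With air CSNK1D (0.43) and CSNK2A1 (0.26) were called too, and with pollen NAMPT (-0.49), which makes a precursor of NAD. For any change over the 5 times 16 of the 23 passed with air and 13 with pollen, against 61.9% and 60.7% of all probes.

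The genes whose 10 group means were most like those of BHLHE40, among 24539 gene names, were TEAD1 (Pearson r = 0.965), KLF9 (0.959) and 3 transcripts named in the files as lnc-AC110619.2.1-1 (0.962), ENST00000434596 (0.961) and ENST00000434195 (0.957). These values describe 10 means that share arrays with each other, include the slide of 6h50 min, and carry no test. KLF9, a zinc finger factor that glucocorticoids induce, had levels of 3.10 and 3.41 with air at 10 and 55 min, and TEAD1, a DNA-binding partner of YAP, 2.48 and 2.65.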

How the data were processed

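RNA of BEAS-2B cells, mock exposed or exposed to whole birch pollen, was measured on 30 one-colour Agilent arrays. Per the file headers the deposited spot intensities are background subtracted and detrended within each array by Feature Extraction 11.0.1.1, and not scaled between arrays. The authors' own processed log2 values were deposited as well, in 1 table whose columns are quantile normalized. It was used as an alternative without 1 array of another design. Its 6 columns of 24 h each match another array of their own group (rank correlation 1.00) better than the array of the same name (0.936 to 0.956), which leaves group means as they are. The number of measurement columns without a sample is 0. Probe positions are on hg19, as in the files, and members were matched by the gene names in the files. Other names came from RefSeq through the accessions of 33536 probes and the names of 4384, and were otherwise those of the files.

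In R 4.3.3, spots marked uneven or as outliers were left out, the spots that share a probe were averaged, and their log2 intensity was set relative to the 75th percentile of the array over the 33873 probes on both designs. The designs hold 58201 probes on 29 arrays and 42405 on the other. A probe was tested where some group had it well above background on all 3 of its arrays, which left 32099. The 10 group means were fitted in limma 3.58.1 by lmFit and eBayes (20 residual and 2.35 prior degrees of freedom), and Benjamini-Hochberg adjustment ran over all tested probes. The test was checked on simulated data with independent noise and no slide effect or pairing. That check therefore does not cover effects of slides or pairing. Changes over the 5 times and the difference of the pollen effect between times were tested with F-tests at the adjusted p alone. A gene is represented by its brightest tested probe.

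Every member was named with all its probes. Other clock genes were named where called, except for some that are not reported here, and 5 genes by their likeness to the member with the smallest F-test p over time in air. Members and lists were chosen with earlier results of these data known. Replicate numbers come from the titles. Over probes, deviations of pollen and air arrays of the same number correlated at 0.296 to 0.346 at 10 min, 0.405 to 0.516 at 2h25 min and 0.220 to 0.494 at 24 h. At 55 min the correlations were -0.12 to 0.35 and at 6h50 min 0.05 to 0.12. Per the paper, each exposure had a mock control in the same run. The reported fit used no pairing at any time, so its p-values ignore it. The replicate block, which pairs arrays of the same number, was an alternative.

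Alternatives were the percentile over own probes, quantile normalization, normexp background correction with it, the authors' table, no filter on dim probes, array weights, the slide as a random or fixed block, the replicate block, a fit of only the groups compared, and each array left out in turn. After seeing the data, the comparison of 24 h with 2h25 min, the F-tests without 6h50 min, the second PER2 probe beside the spots outside dim areas, and values within slides were added. The F-tests without 6h50 min left its groups out of the test and kept its arrays in the fit. Dim areas are windows of 24 rows by 12 columns whose median signal deviates by over 0.3 on the log2 scale. The precision is limited by 3 arrays per group.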

Additional observations from a re-analysis of the deposited data

How the results depend on the processing

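Members called between pollen and air at 2h25 min numbered 1 and became 0 with the percentile over own probes, without a filter on dim probes, with array weights and with only the groups compared. Of the probes tested in each, 0.0343% were called as reported and 0.00623%, 0.00515%, 0.0218% and 0% under these settings, in that order. With the percentile over own probes, which moves the median difference of all probes between pollen and air at 55 min to -0.37, the calls also became 0 for 55 min against 10 min in both exposures, 2 (air) and 1 (pollen) for 24 h against 6h50 min, 3 for 6h50 min against 2h25 min with pollen, and 1 (air) and 2 (pollen) for 24 h against 2h25 min. The shares of all probes were 0.0779% and 0.654%, 20.9% and 16.5%, 12.3%, and 11.6% and 7.84%, in that order. With only the groups compared the calls of members were 0 for 55 min against 10 min in both, 1 and 2 for 24 h against 6h50 min, and 2 and 3 for 24 h against 2h25 min. The shares of all probes there were 0% and 0.0125%, 33.9% and 28.9%, and 18.1% and 9.53%. Between pollen and air at 6h50 min, 0 calls became 3 with normexp and in the authors' table, 2 with array weights, and 1 (PER2) with the slide as a random block and with the replicate block. Calls over all probes rose as well, from 0.0436% to 0.95%, 1.2%, 1.65%, 0.128% and 0.421% in that order of settings. The replicate block added the call of DBP for 24 h against 6h50 min with pollen (adjusted p = 0.0384). Beside the calls of PER2 and DBP it changed no count of members, and under it BHLHE40 at 2h25 min had an adjusted p of 0.0099. For 55 min against 10 min with air, 1 call became 2 in the authors' table and with array weights, and 0 with the slide as a random or fixed block. With pollen 2 became 1 and 0 with these blocks. Of all probes with air, 0.489% were called in the authors' table and 9.08% with array weights, against 0.187% as reported. The random and fixed blocks called 0.0249% and 0.028% with air. With pollen they called 0.0498% and 0.00312%, against 0.841% as reported. For 24 h against 6h50 min, 4 calls became 2 with quantile normalization in both exposures, 2 with normexp or the authors' table with pollen, and 2 (air) and 1 (pollen) with a random slide block. The shares of all probes were 36.5% and 33%, 31.5% and 35.3%, and 21.6% and 17.9%, against 40.5% (air) and 36.2% (pollen) as reported. Array weights gave 1 call for 2h25 min against 55 min with air, at 0.508% of all probes against 0.0156%. For 24 h against 2h25 min with air, 4 became 2 without a filter and with a fixed slide block, at 12.1% and 20.9% of all probes against 27.4%. Without 6h50 min the F-test with air passed 5 in place of 8 members, and 35.4% in place of 61.9% of all probes. PER2 with air, 24 h against 6h50 min, turned to -0.18 without the dim spots.

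Leaving out 1 array gave 0 to 1 calls between pollen and air at 2h25 min and 0 to 2 at 6h50 min (2, PER2 and BHLHE41, without air replicate 3). With air it gave 0 to 1 for 55 min against 10 min, 2 to 5 for 24 h against 6h50 min (2 without 24 h replicate 1 or 2) and 2 to 5 for 24 h against 2h25 min (2 without 2h25 min replicate 3 or 24 h replicate 3). With pollen it gave 2 to 3 for 24 h against 6h50 min (2 without 6h50 min replicate 2 or 24 h replicate 1) and 4 to 5 for 24 h against 2h25 min. The test of the pollen effect between times gave 0 to 1. For the fits without 1 array the shares of all probes called are not given, so these counts of members have nothing to be set against. Other counts of members stayed within 1.5 times of their value.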
